A study of Mus musculus with 8 samples.

Results

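The genes described here encode the intraflagellar transport (IFT) machinery of the cilium, namely the subunits of the IFT-A and IFT-B complexes and the kinesin and dynein motors that carry them. They were chosen by function, as 35 named genes of the 20018 genes that probes of the array could be assigned to. The rule that chose them uses no measured value, but earlier results of these data were known when they were chosen. A probe for 34 of them was found, with none for *Dynlt1b*, and 33 were tested. The probe for *Wdr19* was not well above background on any array, with a processed signal of 3.82 to 6.10. For each gene the brightest of its probes was used, and 7 members had a second probe.

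Whole retinas of 2-week-old *Lpcat1* wildtype (WT) and *Lpcat1* knockout (KO) mice gave the total RNA that was hybridised to 8 Agilent arrays in a single colour, 4 for each genotype. *Lpcat1* encodes an acyltransferase that makes phosphatidylcholine with saturated fatty acids, and mice lacking it lose photoreceptors. The labels give the strain of both genotypes as C57BL/6. Per the study, the KO mice were global knockouts, and per its methods they had a C57BL6/N background and were crossed with C57BL6/J to remove the rd8 mutation of *Crb1*, and mice homozygous for rd8 were not used. The labels number the samples without stating that each came from its own animal, so the p-values measure the spread between these samples, which may be technical. The slide carried the WT arrays in its first row and the KO arrays in its second, so an effect of the row and one of the genotype cannot be told apart. The signal at the 75th percentile was between 638.5 and 737.8. Of 55681 probes, between 35033 and 36373 were well above background in WT and between 33117 and 35620 in KO. KO replicates 2, 3 and 4 had fewer than any WT array. The probe for the targeted gene was at -0.41 ± 0.03 in WT and -0.87 ± 0.06 in KO (mean ± SD of the log2 level, n = 4 each), and its place relative to the deleted part is not given in the sources used here. All 13 rod markers were bright enough to be tested. Of the markers of tissues next to the retina, 5 of 6 for the retinal pigment epithelium (all but *Best1*) and 3 of 5 for the lens (all but *Mip* and *Lim2*) were also bright enough to be tested, and 0 of these 8 were called in either direction.

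Cilia are built and maintained by trains of IFT-B and IFT-A that move along the axoneme. Heterotrimeric kinesin-2 pulls the trains to the tip and dynein-2 returns them to the base, while IFT-A and its adaptor TULP3 also bring membrane proteins into the cilium. The outer segment of a rod or cone is a modified cilium whose discs are renewed throughout life, and proteins made in the inner segment reach it through the connecting cilium, so defects of IFT genes are known to cause retinal degeneration. Levels below are log2 signals after subtraction of the array's own 75th percentile. A difference is the log2 level in KO minus that in WT, given with its standard error (SE) from limma and an adjusted p (Benjamini-Hochberg, over 33975 tested probes). Levels of different probes are not compared with each other.

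Most members lay slightly lower in KO, and no difference reached 1.2-fold. Of 33 tested members, 30 had a difference below 0 (25 to 30 under the other processing settings). The median over members was -0.08 (-0.040 with cyclic loess). Over all 14938 tested genes the median was -0.02 (0.0097 with cyclic loess and 0.0038 with quantile normalization), and 57.8% of them lay below 0. Differences ranged from -0.26 for *Ttc30a1* to 0.13 for *Tulp3*. With the study's rule, an adjusted p under 0.05 and a change over 1.2-fold, 0 members were called lower and 0 higher, while the rule called 1.49% of all tested genes lower and 1.99% higher. At the same adjusted p with no minimum fold, 4 members were lower in KO (*Ttc30a1*, *Wdr35*, *Ttc26* and *Ift27*) and 0 were higher, beside 3.32% of all tested genes lower and 3.31% higher. At an unadjusted p under 0.05 in limma, 11 members were lower and 1 was higher, against 15.3% and 10.9% of all tested genes. In 8 members every KO sample lay below every WT sample, which held for 12.4% of all tested genes, and in 1 member, *Tulp3*, every KO sample lay above, as for 8.78% of all tested genes. The 95% interval of the difference lay within a 1.2-fold change in either direction for 24 members. When any 1 array was left out, between 0 and 2 members remained at an adjusted p under 0.05 (2 without KO replicate 1, 1 without KO replicate 2, KO replicate 3 or WT replicate 1, and 0 without each other array). Under the other processing settings the count ranged from 0 to 8.

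**Figure D1:**
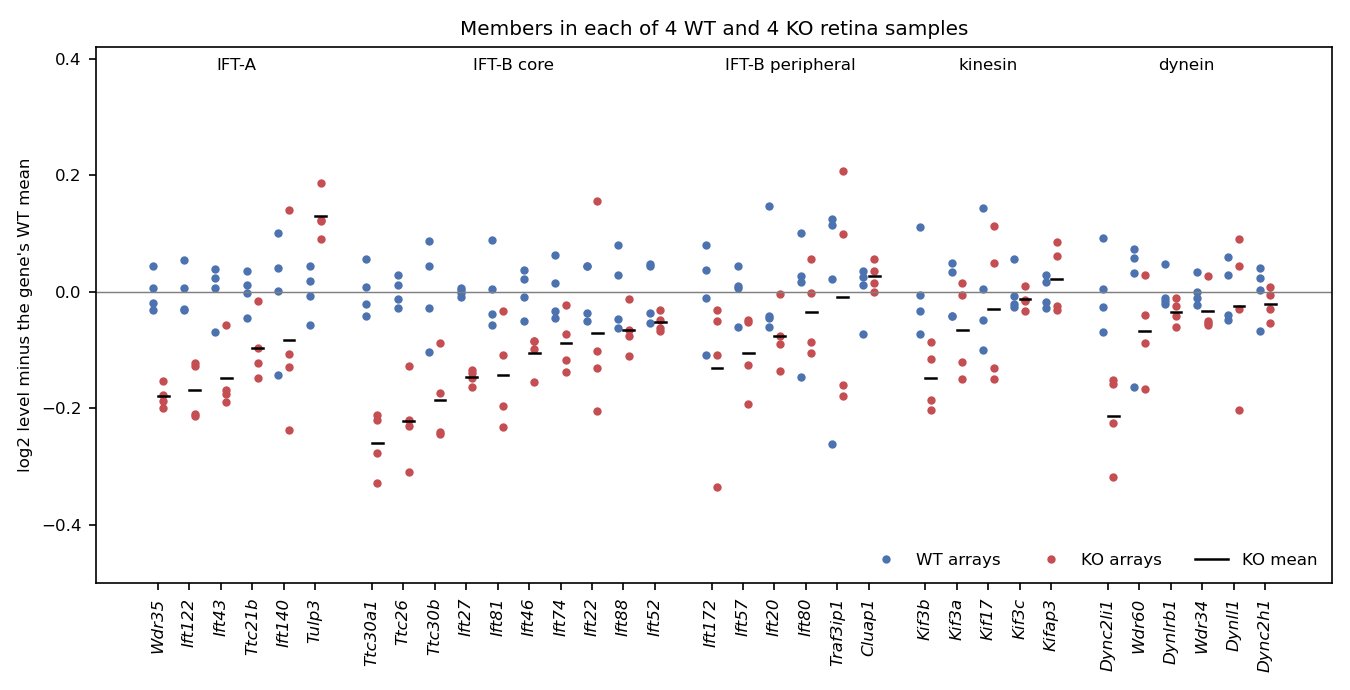
Log2 level of each of the 33 tested members in each of the 4 WT (blue) and 4 KO (red) samples, with the mean of the gene's 4 WT samples subtracted. Members are ordered within IFT-A, the IFT-B core, the IFT-B periphery, kinesin and dynein by their difference, and the black bar is the KO mean. Most KO points lie below 0 in every group. All KO points lie below all WT points in 2 of 6 members of IFT-A and 4 of 10 of the IFT-B core. The same holds for 0 of 6 members of the IFT-B periphery, 1 of 5 of kinesin and 1 of 6 of dynein. The difference between the groups was not tested.

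Between 26 and 29 of the 33 members lay below their own WT mean in a given KO sample. For WT samples the count was between 13 and 20, but each WT sample is part of the mean it is set against, which holds the WT values near 0 here and in the medians below. The median over members of the level relative to the WT mean was -0.11 to -0.07 in the KO samples and -0.03 to 0.02 in the WT samples. Over all tested genes it was -0.03 to -0.01 in the KO samples and -0.01 to 0.01 in the WT samples. Replicates of a member were close together, with a median SD of 0.05 in WT and 0.06 in KO over the 33 members.

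Markers of several retinal cell types differed between the genotypes as well, those of rods in the direction of the members and those of cones and glia in the other. All 13 rod markers had a difference below 0, with a median of -0.24, and 8 of them were lower at an adjusted p under 0.05. The summed signal of the rod markers was 2450 to 2549 times the 75th percentile signal in WT and 2015 to 2210 times in KO. The summed signal of 8 cone markers was 159.8 to 165.5 in WT and 186.6 to 197.6 in KO. That of 8 Müller glia markers was 294.7 to 314.5 in WT and 353.1 to 363.7 in KO. The bright genes *Clu* and *Apoe* weighed most in this sum. Of the 8 genes, 7 had a difference above 0, with *Vim* at only 0.03, and *Slc1a3* was at -0.04. The summed signal of 8 microglia markers was 10.4 to 11.3 in WT and 13.7 to 14.1 in KO. The summed signal of 8 bipolar cell markers overlapped, at 249.2 to 279.0 in WT and 261.5 to 277.8 in KO. Amacrine and horizontal cell markers (8 genes) summed to between 86.0 and 88.2 in WT and between 93.8 and 96.3 in KO, and ganglion cell markers (7 genes) to between 151.0 and 153.7 in WT and between 154.5 and 161.6 in KO, with 0 genes called in either list. These sums rest mostly on a few bright genes, and the medians over genes overlapped between the genotypes in both lists, with 2 of 8 and 2 of 7 genes below 0. In RNA of the whole retina, fewer cells of a type and less RNA of a gene per cell cannot be told apart, and the part of the rod markers' shift in the members' differences was not tested.

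**Figure D2:**
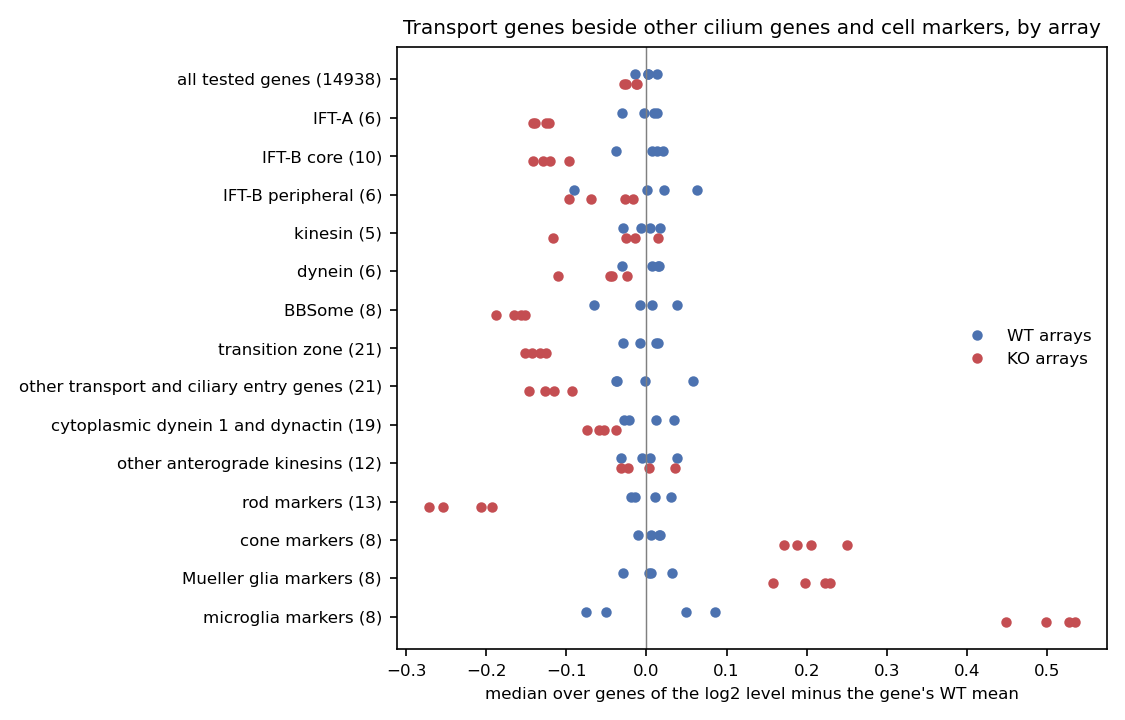
Median over the genes of each list of the log2 level minus the gene's WT mean, for each WT (blue) and KO (red) array, with the number of tested genes in parentheses. In IFT-A and the IFT-B core the KO arrays lie between -0.14 and -0.10, above the rod markers at -0.27 to -0.19 and below all tested genes at -0.03 to -0.01.

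Short promoter sequences were read for the members because many ciliary genes are known targets of RFX factors, which bind the X-box. The RefSeq promoter table of GRCm38.p6 spans 250 bases before and 50 after the start of a transcript and held 30 promoters for 29 of the 35 members. The X-box was searched as the arm GTTNCC followed after 0 to 3 bases by the arm GGNAAC, the single arm as GTTGCC, and the core of the photoreceptor factor CRX as TAATCC, each on both strands. Such an arm may lie inside an X-box, as in both X-boxes found here. A single arm was present in 13 of 30 member promoters (43.3%) and in 12.5% of all 32851 promoters of the table. An X-box was present in 2 of 30 (6.67%), against 0.804% of all promoters, and the CRX core in 2 of 30 (6.67%), against 7.06%. The 2 promoters with an X-box belong to *Ttc26* and *Ift57*, subunits of IFT-B, and are shown with the match in capitals, 5′ to 3′ along the gene.
Ttc26, chr6:38381483-38381512, plus strand: ccggcggcGTTGCCGTGGAAACggagctcg
Ift57, chr16:49699226-49699254, plus strand: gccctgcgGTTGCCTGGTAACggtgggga
Counting the first transcribed base as 0, the match lay from -33 to -20 in *Ttc26* and from -60 to -48 in *Ift57*. Of the 4 members with an adjusted p under 0.05, 3 had a single arm. The other two besides *Ttc26* were *Ift27*, with the arm at -9 to -4, and *Wdr35*, with the arm after the start, from 40 to 45, both shown with the arm in capitals.
Ift27, chr15:78174073-78174102, minus strand: gggttgatgatgGTTGCCaggagcctgttt
Wdr35, chr12:8974029-8974050, plus strand: tgggcggcggtgGTTGCCaggc
The promoter of *Ttc30a1*, which had the most negative difference, held no match of the 3 motifs. The median difference was -0.07 over the 13 tested members with a single arm and -0.07 over the 15 tested members of the table without one. A match describes the letters of the window and is not evidence of binding.

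IFT-A holds the retrograde trains together and admits membrane cargo. Of its 6 tested members, 5 had a difference below 0, the median was -0.12, and 1 was lower at an adjusted p under 0.05. The median over the 6 was -0.14 to -0.12 in the 4 KO samples and -0.03 to 0.01 in the 4 WT samples.

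*Wdr35*, which encodes the IFT121 subunit of the peripheral part of IFT-A, had log2 levels of 1.69, 1.73, 1.70 and 1.77 in WT and 1.53, 1.54, 1.57 and 1.52 in KO. All KO samples lay below all WT samples, and the KO values spanned a narrow range. This gave a difference of -0.18 (SE 0.03, limma adjusted p = 0.0307) and a KO signal at 88.3% of WT. Leaving out KO replicate 1 gave an adjusted p of 0.0491, and leaving out any other array gave 0.0587 to 0.0913.

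*Ift122*, a core subunit of IFT-A, was measured at 3.01, 3.09, 3.04 and 3.01 in WT and 2.82, 2.83, 2.91 and 2.91 in KO. The groups did not overlap here either. Its difference of -0.17 (SE 0.04) had a limma adjusted p of 0.0544. A second probe of the gene gave 2.16, 2.16, 2.25 and 2.16 in WT and 1.96, 1.97, 1.97 and 2.01 in KO, again without overlap, and a difference of -0.21 (SE 0.04, limma adjusted p = 0.0258). The probe used by rule thus lay just past the threshold and the other probe within it.

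*Ift43*, a small peripheral subunit, had levels of 2.92, 2.99, 3.02 and 3.01 in WT and 2.93, 2.81, 2.82 and 2.79 in KO. KO replicate 1 lay among the WT samples and the other three below them. The difference was -0.15 (SE 0.05, limma adjusted p = 0.0952). *Ttc21b*, which encodes the IFT139 subunit and is mutated in human nephronophthisis, had a difference of -0.10 (95% interval -0.19 to 0.00039, limma adjusted p = 0.212).

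*Ift140*, a core subunit whose loss is known to cause retinal dystrophy, was dim, at -2.51, -2.61, -2.57 and -2.75 in WT and -2.84, -2.71, -2.47 and -2.74 in KO. The groups overlapped widely. Its difference of -0.08 had a 95% interval of -0.28 to 0.12 (limma adjusted p = 0.606), which does not exclude a 1.2-fold decrease. *Wdr19*, the remaining core subunit, gave no level to compare.

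*Tulp3*, the adaptor by which IFT-A delivers G protein-coupled receptors to the cilium, was the only tested member of IFT-A with a difference above 0. Its levels were 0.04, 0.09, 0.07 and -0.01 in WT and 0.14, 0.17, 0.24 and 0.17 in KO. Every KO sample lay above every WT sample. The difference was 0.13 (SE 0.04, 95% interval 0.04 to 0.22), and the limma adjusted p was 0.0941, so the change did not pass the test.

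IFT-B drives anterograde transport and carries tubulin and other axonemal cargo. Of its 16 members, 15 had a difference below 0, counting *Traf3ip1*, which turned above 0 under the other scalings run, the median was -0.10, and 3 were lower at an adjusted p under 0.05. All 3 belong to the 10 core subunits, of which 10 lay below 0 (9 when the probes of a gene were averaged, with *Ift46* at 0.010) with a median of -0.12, while 0 of the 6 peripheral subunits passed and their median was -0.06. In the core the median over subunits was -0.14 to -0.10 in the KO samples and -0.04 to 0.02 in the WT samples. In the periphery it was -0.10 to -0.02 in KO and -0.09 to 0.06 in WT, which overlap. The difference between core and periphery was not tested.

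*Ttc30a1* and *Ttc30b* encode near-identical forms of the IFT70 subunit, which binds the IFT52 and IFT88 pair in the core. *Ttc30a1* had the most negative difference of all members, with levels of 0.71, 0.69, 0.74 and 0.78 in WT and 0.51, 0.45, 0.52 and 0.40 in KO. All 4 KO samples lay clearly below all 4 WT samples. The difference was -0.26 (SE 0.04, 95% interval -0.36 to -0.16, limma adjusted p = 0.0195), and the KO signal was 83.5% of WT, just short of a 1.2-fold decrease. The adjusted p was 0.0283 without KO replicate 1, 0.0414 without KO replicate 3 and 0.0485 without WT replicate 1, and in these 3 cases the fold limit was passed as well. Leaving out 1 of the other 5 arrays gave 0.0506 to 0.0626.

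*Ttc30b* had levels of 1.05, 0.97, 1.12 and 1.16 in WT and 0.83, 0.83, 0.90 and 0.99 in KO. KO replicate 4 lay just above the lowest WT sample, and the other KO samples lay below all of WT. The difference was -0.19 (SE 0.06, limma adjusted p = 0.0937). *Ttc30b*, *Ttc30a2* and *Ttc30a1* follow one another in the mouse annotation, between *Agps* and *Pde11a*, and the third copy, *Ttc30a2*, had a difference of -0.18 (limma adjusted p = 0.152). Since the 3 copies are near-identical, a probe may bind transcripts of more than 1 of them, and their values are uncertain as measures of single genes.

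*Ttc26* encodes the IFT56 subunit, which is needed to carry motility-related proteins into the cilium. Its levels were -1.55, -1.57, -1.60 and -1.59 in WT and -1.80, -1.70, -1.89 and -1.81 in KO. The groups did not overlap, and the difference was -0.22 (SE 0.05, limma adjusted p = 0.0347), with a KO signal of 85.8% of WT. A second probe was well above background on 1 of 4 WT arrays and 0 of 4 KO arrays and was not tested. The adjusted p was 0.0485 without KO replicate 2 and 0.0546 to 0.0975 without any other array.

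*Ift27* encodes a Rab-like GTPase of IFT-B that also serves the exit of the BBSome from the cilium. It had the smallest spread of the members in WT, with levels of 3.96, 3.96, 3.95 and 3.95, and 3.81, 3.79, 3.82 and 3.81 in KO. Although the shift was small, the groups were well apart relative to that spread. KO minus WT was -0.15 (SE 0.03, limma adjusted p = 0.0393), with the KO signal at 90.4% of WT. Leaving out any 1 array raised the adjusted p to between 0.0559 and 0.11. *Hspb11*, which encodes the IFT25 partner of IFT27 and is not among the 35 members, had levels of 2.28, 2.35, 2.35 and 2.45 in WT and 2.18, 2.19, 2.16 and 2.21 in KO. Here too the groups did not overlap, with a difference of -0.18 (limma adjusted p = 0.0553).

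The other core subunits had smaller or more variable differences. *Ift46* had levels of 3.62, 3.59, 3.64 and 3.55 in WT and 3.51, 3.50, 3.51 and 3.44 in KO, without overlap, and a difference of -0.10 (limma adjusted p = 0.14). A second probe of *Ift46* gave a difference of 0.13 (SE 0.11) in the opposite direction, with overlapping groups. *Ift81*, which with *Ift74* forms the tubulin-binding module, had a difference of -0.14 (limma adjusted p = 0.172), and *Ift74* one of -0.09 (limma adjusted p = 0.265). *Ift88*, the subunit reduced in Oak Ridge polycystic kidney mice, which have abnormal outer segments, had levels of 2.51, 2.42, 2.44 and 2.57 in WT and 2.42, 2.41, 2.47 and 2.38 in KO. The groups overlapped, and the difference of -0.07 had a 95% interval of -0.17 to 0.04 (limma adjusted p = 0.418). The differences of *Ift52*, the central scaffold, and of the GTPase gene *Ift22* were -0.05 and -0.07 (limma adjusted p = 0.456 and 0.621), with overlapping groups in both.

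**Figure D3:**
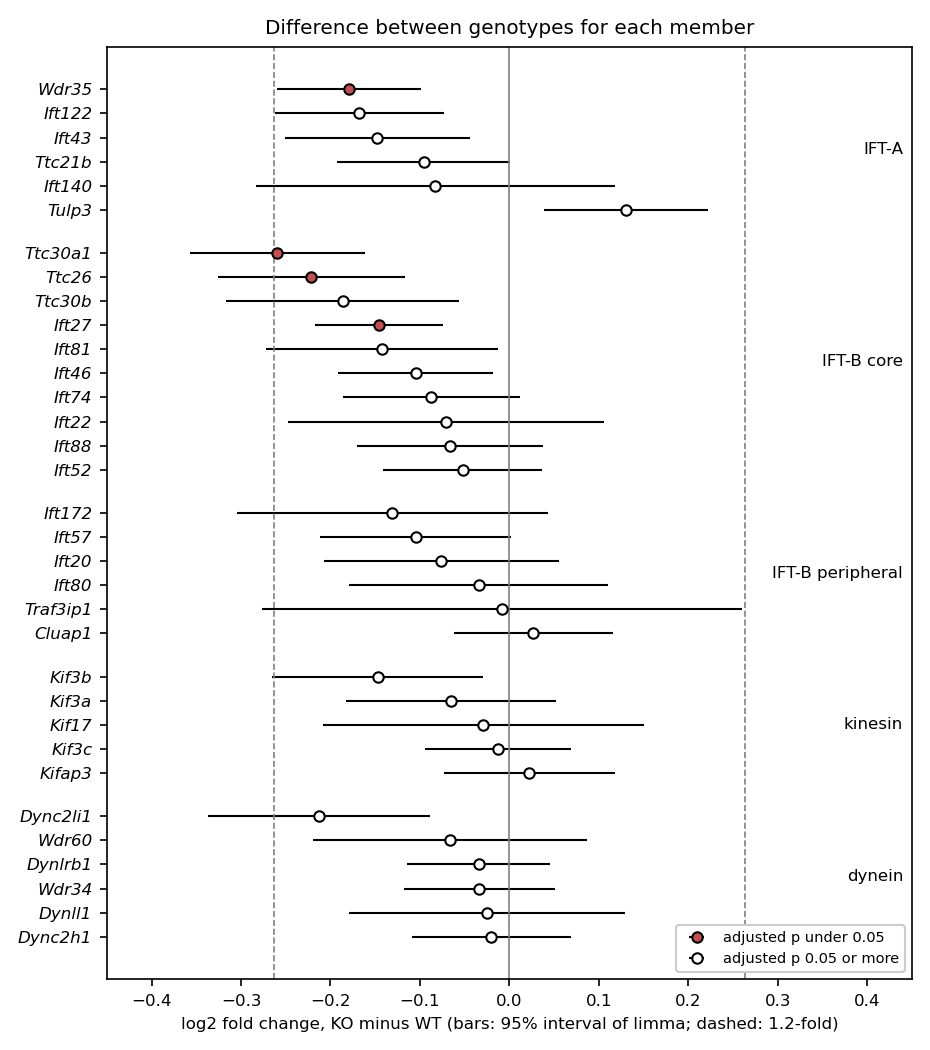
Difference between KO and WT on the log2 scale for each of the 33 tested members (points), with the 95% interval of limma (bars), grouped as IFT-A, IFT-B core, IFT-B peripheral, kinesin and dynein. Filled points mark the 4 members with an adjusted p under 0.05, dashed lines mark a 1.2-fold change, and no point lies beyond them.

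Among the peripheral IFT-B subunits, which link the trains to kinesin-2, all 6 had overlapping groups. *Ift172*, a large subunit at the turnaround of the trains, had the most negative difference, -0.13 (95% interval -0.30 to 0.04, limma adjusted p = 0.339), from levels of 1.37, 1.51, 1.46 and 1.55 in WT and 1.14, 1.37, 1.44 and 1.42 in KO. *Ift57* had a difference of -0.10 (limma adjusted p = 0.218). The differences of *Ift20*, whose product also resides at the Golgi, and of *Ift80* were -0.08 and -0.03 (limma adjusted p = 0.462 and 0.78). *Cluap1*, which encodes the IFT38 subunit, was the only member of IFT-B with a difference above 0 (-0.050 with normexp). Its levels were 2.85, 2.95, 2.94 and 2.96 in WT and 2.94, 2.98, 2.93 and 2.96 in KO, which overlap, and the difference was 0.03 (95% interval -0.06 to 0.12, limma adjusted p = 0.717). *Traf3ip1*, which encodes the IFT54 subunit, had a dim probe, with levels of -3.80, -3.43, -3.42 and -3.52 in WT and -3.34, -3.70, -3.72 and -3.44 in KO. Both groups were widely spread, and the difference of -0.0085 had a 95% interval of -0.28 to 0.26 (limma adjusted p = 0.973).

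Heterotrimeric kinesin-2 is the anterograde motor, formed by the motor subunits KIF3A and KIF3B or KIF3C with the adaptor KAP3, the product of *Kifap3*. A separate homodimer of KIF17 is known in sensory cilia. Of these 5 members, 4 had a difference below 0, counting *Kif3c* and *Kif17*. *Kif3c* turned above 0 with cyclic loess (0.026), quantile normalization (0.028), the percentile over detected probes (0.0070) or without WT replicate 1 (0.0057). *Kif17* turned above 0 with averaged probes (0.0079) or without KO replicate 2, KO replicate 4 or WT replicate 1 (0.0047 to 0.019). The median difference of the 5 members was -0.03 (0.0057 without WT replicate 1). Of the 5, 0 had an adjusted p under 0.05, with 1 at an unadjusted p under 0.05. The median over the 5 was -0.12 to 0.01 in the KO samples and -0.03 to 0.02 in the WT samples, which overlap.

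*Kif3b* had levels of 0.45, 0.47, 0.40 and 0.59 in WT and 0.28, 0.29, 0.39 and 0.36 in KO. The highest KO sample lay just below the lowest WT sample. The difference was -0.15 (SE 0.05, limma adjusted p = 0.131). A second probe gave -1.88, -1.92, -1.95 and -1.90 in WT and -2.09, -2.20, -2.17 and -2.11 in KO, further apart than with the first probe. Its difference was -0.23 (SE 0.04, limma adjusted p = 0.024), so the probe decided on which side of 0.05 the adjusted p lay, and neither probe passed the study's rule.

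*Kif3a*, the subunit common to both heterotrimers, had levels of 3.33, 3.42, 3.41 and 3.33 in WT and 3.39, 3.37, 3.22 and 3.25 in KO. KO replicates 1 and 2 lay within the WT range and replicates 3 and 4 below it. The difference was -0.07 (95% interval -0.18 to 0.05, limma adjusted p = 0.478), and a second probe gave -0.07 (SE 0.04). *Kif3c* stood at 3.22, 3.15, 3.14 and 3.13 in WT and 3.14, 3.17, 3.15 and 3.13 in KO, and *Kifap3* at 3.51, 3.47, 3.52 and 3.46 in WT and 3.58, 3.47, 3.55 and 3.46 in KO. In both genes the groups overlapped. The differences were -0.01 (95% interval -0.09 to 0.07) and 0.02 (95% interval -0.07 to 0.12), with limma adjusted p = 0.858 and 0.783. *Kif17* was measured at -0.28, -0.52, -0.42 and -0.47 in WT and -0.37, -0.57, -0.31 and -0.55 in KO. It varied more between replicates than the genes of the heterotrimers, and its difference was -0.03 (95% interval -0.21 to 0.15, limma adjusted p = 0.853). A second probe of *Kif17* gave a difference of 0.04 (SE 0.22).

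Dynein-2 is the retrograde motor, built on the heavy chain DYNC2H1 with a light intermediate chain, 2 unlike intermediate chains and light chains that it shares with other dyneins. All 6 tested members had a difference below 0, but *Dync2h1*, *Wdr34* and *Dynlrb1* turned above 0 with cyclic loess and quantile normalization, *Wdr34* and *Dynll1* with normexp, and *Dynll1* without KO replicate 1. The median was -0.03 (0.0014 with cyclic loess), and 0 had an adjusted p under 0.05, with 1 at an unadjusted p under 0.05. The median over the 6 was -0.11 to -0.03 in the KO samples and -0.03 to 0.02 in the WT samples, and the highest KO value lay within the WT range.

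*Dync2li1*, the light intermediate chain, was the member that stood apart from the rest of the motor, at 0.09, 0.06, 0.18 and 0.02 in WT and -0.14, -0.23, -0.07 and -0.06 in KO. All KO samples lay below all WT samples. The difference was -0.21 (SE 0.05, 95% interval -0.34 to -0.09), and the limma adjusted p was 0.0587. By contrast *Dync2h1*, the heavy chain that holds the motor domain, had levels of 2.28, 2.35, 2.37 and 2.38 in WT and 2.29, 2.34, 2.31 and 2.35 in KO. The groups overlapped, and the difference was -0.02 (95% interval -0.11 to 0.07, limma adjusted p = 0.789). The difference between the changes of these subunits was not tested.

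The intermediate chain genes *Wdr34* and *Wdr60* had differences of -0.03 and -0.07 (limma adjusted p = 0.623 and 0.587). *Wdr60* had levels of 1.88, 2.12, 2.08 and 2.10 in WT and 1.88, 2.01, 1.96 and 2.07 in KO, which overlap. The shared light chains *Dynll1* and *Dynlrb1* had differences of -0.02 (95% interval -0.18 to 0.13) and -0.03 (95% interval -0.11 to 0.05), with limma adjusted p = 0.856 and 0.591. *Dynll1* stood at -0.48, -0.41, -0.49 and -0.38 in WT and -0.65, -0.40, -0.35 and -0.47 in KO, with KO replicate 1 below all other samples.

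A light chain outside the 35 members differed far more. *Dynlrb2*, a paralogue of *Dynlrb1* known from tissues with motile cilia and from testis, had levels of 1.64, 1.64, 1.73 and 1.72 in WT and 1.05, 0.98, 1.11 and 0.95 in KO. The KO samples lay well below all WT samples, and the difference of -0.66 (SE 0.05, limma adjusted p = 0.0019) passed the study's rule. It was the only one of 19 genes of cytoplasmic dynein 1 and dynactin, the cell body's retrograde motor and its activator, that did so. Their median difference was -0.05, and 1 other gene passed at any fold, *Dync1i1*, a neuronal intermediate chain, which was higher in KO by 0.18 (limma adjusted p = 0.0404). Of 12 other kinesins, 0 were called, 0 passed at an adjusted p under 0.05 with any fold, and the median was -0.02.

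The list of other transport and ciliary entry factors included *Hspb11* and *Ttc30a2*, described above with the IFT-B core. Of its 21 tested genes, 19 had a difference below 0, the median was -0.11, and 0 passed the study's rule. At an adjusted p under 0.05 with any fold, 2 were lower, *Mok*, a kinase related to MAK, with a difference of -0.22 (limma adjusted p = 0.0242), and *Arl13b*, a ciliary GTPase, with one of -0.18 (limma adjusted p = 0.0395). The BBSome is the coat that IFT trains carry as an adaptor for membrane proteins. Its list, which also held the GTPase gene *Arl6*, not a subunit (-0.12), had a median of -0.16 over 8 tested genes. Of these 8 genes, 4 were lower at an adjusted p under 0.05 and any fold. *Bbs5* passed the study's rule, at 2.84, 2.83, 2.84 and 2.89 in WT and 2.68, 2.56, 2.61 and 2.49 in KO, without overlap, with a difference of -0.26 (limma adjusted p = 0.0242). The transition zone, the gate at the base of the cilium, had a median of -0.12 over 21 genes, with 5 lower at an adjusted p under 0.05 and any fold. Of these *Tctn1* passed the study's rule, at -0.85, -0.78, -0.69 and -0.72 in WT and -0.98, -0.98, -0.98 and -1.21 in KO, with a difference of -0.28 (limma adjusted p = 0.0478). Against these lists IFT-A and the IFT-B core had medians close in size, and the motors had medians nearer 0. Whether the lists differ was not tested. Of 9 genes of ciliary transcription factors 7 were tested, and 0 were called.

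**Figure D4:**
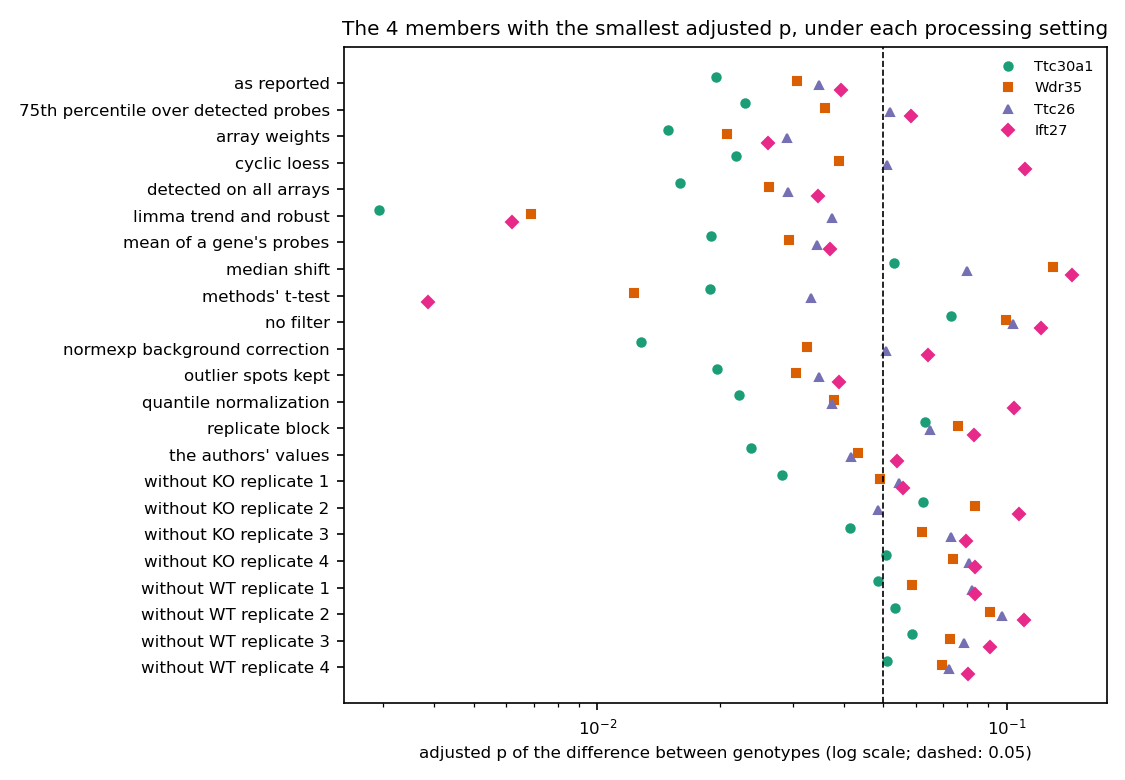
Limma adjusted p (log scale) of *Ttc30a1*, *Wdr35*, *Ttc26* and *Ift27* as reported (top), under 14 other processing settings and without each of the 8 arrays in turn; under the methods' t-test setting the p is that test's. The dashed line marks 0.05, and the points lie on both sides of it, from 0.0029 to 0.145.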

How the data were processed

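Total RNA of whole retinas was labelled with Cy3, and the authors hybridised 1 sample per SurePrint G3 mouse array and quantified it with Agilent Feature Extraction 10.7.1.1. Deposited files of the scanner give linear intensity per spot, corrected for background and not scaled between arrays. The authors' own table holds log2 values after a 75th percentile shift in GeneSpring and differed from the values here by a constant of 0.12 to 0.15 per array, so it served as an alternative.

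The level of a probe was its log2 processed signal minus the 75th percentile of 59305 non-control spots of the array, without spots marked as outliers (86 to 147 per array), with spots of a probe averaged. Testing required a probe to be well above background on each of the 4 arrays of either genotype (33975 of 55681 probes), and 0 spots were saturated. Symbols came from RefSeq by transcript (26413 probes, 47.4%, named). KO was compared with WT by limma 3.58.1 (lmFit, eBayes; R 4.3.3), with Benjamini-Hochberg adjustment, after the fit was tested on simulated data. Genes with an adjusted p under 0.05 that changed more than 1.2-fold were called. Counts with no minimum fold were a listed alternative, and their values under the other settings were added after seeing the data. The number of arrays limits the precision.

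Members, gene lists and motifs were chosen with earlier results of these data known. Values in every sample are given for members with an adjusted p under 0.05, the 2 most negative and 2 most positive differences of each complex or motor, some fixed subunits (*Ift140*, *Ift88*, *Kif3a*, *Kif17*, *Dync2h1* and *Tulp3*) and a few others named after their values were seen (*Ift43*, *Ttc30b*, *Ift46*, *Ift172* and *Hspb11*). Of other lists, genes passing the study's rule are named, and *Mok*, *Arl13b*, *Dync1i1*, *Ttc30a2* and *Hspb11* were named after their values were seen. Alternatives were other normalizations, background correction, filters, tests, thresholds, probe rules and leaving out each array. Normexp correction, with an offset of 50, was run on median spot signals, since no mean signals were used here.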

Additional observations from a re-analysis of the deposited data

Results flagged for a closer look

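Among the 66 groups of 4 samples examined for the 33 tested members, 4 held a sample far from its 3 replicates, with a gap to the nearest of them, as a share of the group's range, above the critical value of Dixon's test, where chance gives about 1 group in 20. *Ift43* was at 2.93 in KO replicate 1 and between 2.79 and 2.82 in the other KO samples, and this sample made the genotypes overlap. *Ift20* was at 3.20 in WT replicate 4, with the other WT samples between 3.00 and 3.01. *Dynlrb1* was at 5.55 in WT replicate 2, beside 5.48 to 5.49 in the others. *Wdr34* was at 7.10 in KO replicate 1, beside 7.02 in each of the other KO samples. The differences of these 4 genes did not pass an adjusted p under 0.05 in the limma fit of the report, and *Ift43* passed with array weights and with limma's trend and robust options.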

How the results depend on the processing

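Lower calls by the study's rule numbered 0 under every alternative run except where 1 array was left out, with a range of 0 to 1 (*Ttc30a1* without KO replicate 1, KO replicate 3 or WT replicate 1), and where the minimum fold was dropped, with 4. Higher calls were 0 throughout. The 4 members lower at any fold became 2 with the 75th percentile over detected probes, cyclic loess or normexp, 7 with array weights, 8 with limma's trend and robust options, and 0 with a median shift, with no filter or with the replicate number as a block. They numbered 3 to 6 under the other alternatives that used all arrays and ranged from 0 to 2 when 1 array was left out. The numbers do not pair the samples by any label, and deviations of samples with the same number correlated at 0.249, 0.0687, 0.0370 and 0.112, so no pairing was assumed. Not every sample correlated best with its own number. The median of all members was -0.040 with cyclic loess. That of IFT-B was -0.061 with cyclic loess and -0.061 with quantile normalization. That of dynein was 0.0014 with cyclic loess and -0.0029 with quantile normalization, and that of kinesin was between -0.055 and 0.0057 with 1 array left out, turning sign without WT replicate 1. The median of members minus that of all tested genes stayed between -0.07 and -0.04 in every setting, and 25 to 30 members lay below 0.

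Signs turned for 9 members. *Traf3ip1* was 0.011 with the percentile over detected probes, 0.052 with cyclic loess, 0.0019 with a median shift, 0.070 with normexp, 0.0084 with quantile normalization, 0.0035 with the authors' values and -0.095 to 0.048 with 1 array left out. *Kif3c* was 0.0070, 0.026 and 0.028 with the percentile over detected probes, cyclic loess and quantile normalization, and -0.022 to 0.0057 with 1 array left out. *Dync2h1*, *Wdr34* and *Dynlrb1* were 0.010, 0.051 and 0.030 with cyclic loess and 0.0098, 0.090 and 0.049 with quantile normalization, and *Wdr34* was 0.0096 with normexp. *Ift46* was 0.010 and *Kif17* 0.0079 when a gene's probes were averaged, and *Kif17* was -0.077 to 0.019 with 1 array left out. *Cluap1* was -0.050 and *Dynll1* 0.00044 with normexp, and *Dynll1* was between -0.063 and 0.035 with 1 array left out, above 0 without KO replicate 1. The causes were not tested. The adjusted p of a member crossed 0.05 upward in 47 and downward in 11 of 726 combinations of a member and an alternative. Dim probes such as those of *Traf3ip1* and *Ift140* limit what can be seen, since their intervals reach a 1.2-fold change.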
